A study of Mus musculus with 6 samples.

Results

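The arginase and nitric oxide synthase genes were followed in bronchial smooth muscle cells (BSMCs) from mice with allergic airway inflammation and from control mice. They are the 10 genes Slc7a1, Slc7a2, Arg1, Arg2, Odc1, Nos1, Nos2, Nos3, Ass1 and Asl, taken by gene symbol from 20239 genes tested, and all 10 were measured, each by 1 probe set. OVA sensitized mice were injected with 50 µg of ovalbumin (OVA) on day 0 and day 7, and PBS sensitized control mice were injected with PBS. Mice of both groups then breathed nebulized OVA on each of 5 days between day 14 and day 18 and were analyzed on day 19, so the control samples also come from airways that had met the allergen. All mice were adults of strain C57BL/6J that carry an hrGFP transgene driven by a rat α-smooth muscle actin promoter and a DsRed transgene driven by the mouse NG2 promoter. BSMCs were sorted from dissociated lung as cells with hrGFP and without DsRed, CD45 or CD31, and the RNA of several mice was pooled for each sample. The sample labels instead speak of microdissected muscle of single animals and give the OVA injections for every sample; groups were taken from the sample titles. There were 3 OVA arrays and 3 PBS arrays, 1 per sample, and each value below is a log2 level from a whole-transcript array, so that a difference of 1 is a doubling.

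Arginine enters cells through cationic amino acid transporters and is then open to competing enzymes. Arginases split it into urea and ornithine, the precursor of polyamines and proline, whereas nitric oxide synthases turn it into citrulline and nitric oxide, a gas that relaxes smooth muscle through soluble guanylate cyclase. Citrulline can be turned back into arginine. In mice, arginase 1 is a well-known product of macrophages exposed to IL-4 or IL-13, the cytokines of allergic inflammation, and its competition with nitric oxide synthases has been studied in allergic airways.

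OVA 2 stood apart from the other arrays over all genes. Its mean correlation with the other 5 arrays was 0.9594, against 0.9802 to 0.9857 for each of those, and it alone lay on the positive side of the first principal component, which held 61.2% of the variance. Its levels covered a narrower range, with a lower quartile of 5.705 against 5.254 to 5.355 on the other arrays. The study's methods left out an OVA array as an outlier without naming it, and OVA 2 was taken to be that array. The comparison is therefore given first for OVA 1 and OVA 3 against the 3 PBS arrays, and beside it for all 6 arrays. Acta2, which encodes α-smooth muscle actin, the gene whose promoter drives hrGFP, lay at 12.09 to 12.52 on OVA arrays and 11.87 to 12.39 on PBS arrays. This does not measure purity, since fibroblast markers were as high. Dcn lay at 12.19 to 12.28 on OVA arrays and 12.33 to 12.47 on PBS arrays. On PBS arrays 10 fibroblast markers averaged 11.14, 11.38 and 11.30, and 10 smooth muscle markers 11.05, 9.95 and 10.59. On OVA arrays these means were 11.24, 11.36 and 11.06, and 11.01, 10.32 and 11.30. The study reports that most sorted cells carried the expected markers. Markers of cells that the sort should remove also gave signal, some of them high, while Ptprc on OVA 2 lay below that array's median of 6.79. Ptprc, which encodes CD45, lay at 6.18 to 8.31 on OVA arrays and 6.84 to 8.10 on PBS arrays, and Scgb1a1, the secretory protein of club cells, at 9.65 to 11.68 on OVA arrays and 11.59 to 11.76 on PBS arrays. Cspg4, which encodes NG2, whose promoter drives the DsRed that the sort excludes, lay at 8.90 to 9.54 on OVA arrays and 8.81 to 9.63 on PBS arrays, and 8 markers of vascular smooth muscle and pericytes averaged 9.26, 8.68 and 9.48 on OVA arrays and 9.58, 9.04 and 9.26 on PBS arrays.

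Of the 10 genes, Arg1 was the one whose OVA and PBS levels differed at an unadjusted p under 0.01 (limma), and it was higher in OVA samples. Across all genes 0.963% were higher at that cutoff. No member passed the false-discovery rate (FDR) of 0.25 that the study used for its shorter list, so none is called as changed here. The study also lists genes at an unadjusted p under 0.01 (limma), and Arg1 is among them, higher in OVA samples. Over all genes tested, 0.0395% passed that FDR, 1.97% had an unadjusted p under 0.01 and 9.31% had one under 0.05. At an unadjusted p under 0.05 there was again 1 member of 10, a share near that of all genes. OVA 1 and OVA 3 lay above every PBS array for 3 members, Arg1, Slc7a2 and Arg2, and below every one for 0, while 28.7% of all genes showed no overlap in one direction or the other, with 11.9% above and 16.8% below. The members had a median log2 fold change of 0.04, and all genes one of -0.02. With all 6 arrays, 0 members passed the FDR (0.00494% of all genes), 1 had an unadjusted p under 0.01, Arg1 (0.86% of all genes, 0.282% higher), and 2 had one under 0.05. These were Arg1, higher, and Ass1, lower, against 4.54% of all genes, 1.44% higher and 3.1% lower. Over all 6 arrays 2 members, Arg1 and Slc7a2, had every OVA array above every PBS array, against 4.16% of all genes, and 0 had every one below, against 7.83%; the groups did not overlap for 12% of all genes. The p-values measure only the spread between these samples, which may be in part technical. In such bulk samples fewer cells of a type cannot be told apart from less RNA per cell.

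**Figure D1:**
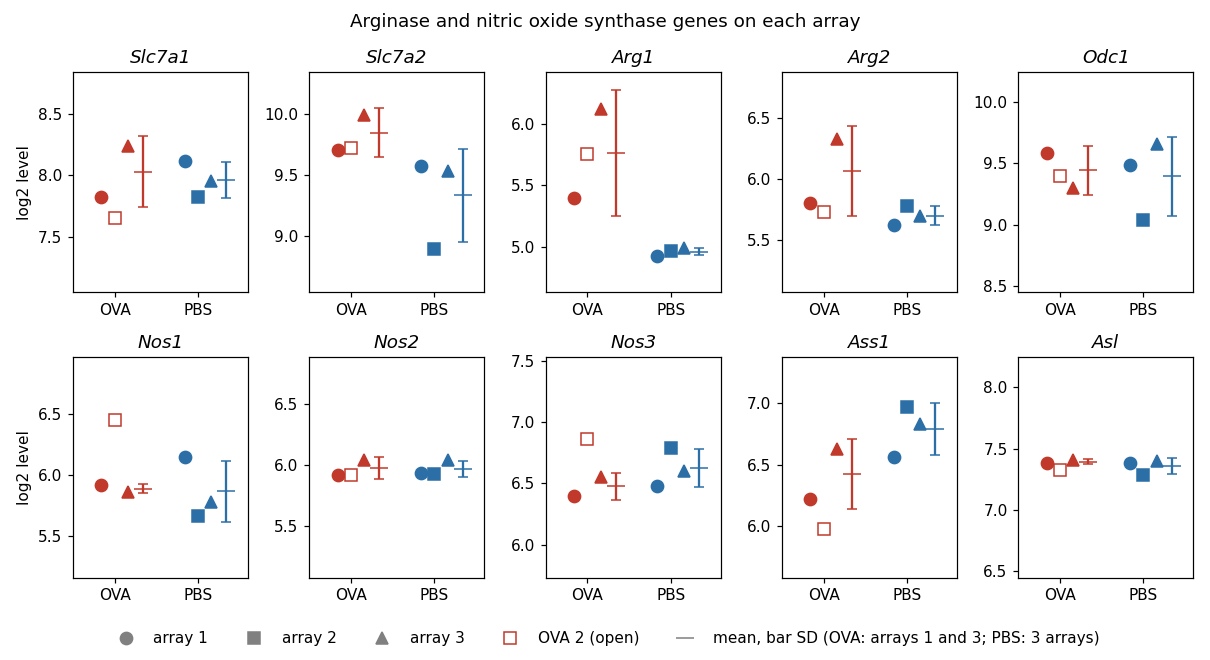
Log2 level of each of the 10 genes on each array, with OVA arrays on the left of each panel and PBS arrays on the right. Every panel spans the same range of levels, marks show array numbers, the open square is OVA 2, and bars give mean and SD (OVA 1 and OVA 3, n = 2; PBS, n = 3). Arg1 lies at 5.40 to 6.13 on OVA arrays and 4.93 to 4.98 on PBS arrays, while the groups of Nos2 and Asl coincide.

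Slc7a1 and Slc7a2 encode the cationic amino acid transporters CAT1 and CAT2, which carry arginine, lysine and ornithine across the plasma membrane. Slc7a2 (Entrez 11988) had levels of 9.71, 9.72 and 9.99 on the OVA 1, OVA 2 and OVA 3 arrays, against 9.57, 8.90 and 9.53 on PBS 1, PBS 2 and PBS 3. Each OVA array was above each PBS array, but OVA 1 exceeded PBS 1 by little, and PBS 2 was far below the other PBS arrays. The log2 fold change between OVA 1 and OVA 3 and the PBS arrays was 0.51 (standard error 0.224, unadjusted p = 0.0614, adjusted p = 0.547, limma), and over all 6 arrays it was 0.47 (standard error 0.209, adjusted p = 0.892). Without PBS 2 the log2 fold change was 0.29. The mean level of 10 smooth muscle markers was 10.32 to 11.30 on OVA arrays. It was 9.95 on PBS 2, where it was lowest, and 10.59 and 11.05 on the other PBS arrays. The part of smooth muscle cells in the Slc7a2 difference was not tested. Slc7a1 (Entrez 11987) had levels of 7.83, 7.65 and 8.24 on OVA arrays and 8.12, 7.82 and 7.96 on PBS arrays. Its groups overlapped, with a log2 fold change of 0.07 (95% interval -0.31 to 0.44), and with OVA 2 included the sign turned, at -0.06 (95% interval -0.49 to 0.37).

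Arg1 (Entrez 11846), the cytosolic arginase of the urea cycle, had levels of 5.40, 5.76 and 6.13 on the OVA 1, OVA 2 and OVA 3 arrays. On the PBS 1, PBS 2 and PBS 3 arrays its levels were 4.93, 4.96 and 4.98. The PBS arrays lay close together, the OVA arrays were all higher and more spread out, and the groups did not overlap with or without OVA 2. The level averaged 5.76 ± 0.52 (SD, n = 2) on OVA 1 and OVA 3 and 4.96 ± 0.03 (SD, n = 3) on PBS arrays, a log2 fold change of 0.81 (standard error 0.205, 95% interval 0.31 to 1.31), or 1.75-fold. The unadjusted p was 0.00749 and the adjusted p 0.48 (limma), which put Arg1 at rank 297 of the 20239 genes by p. Over all 6 arrays the log2 fold change was 0.80 (standard error 0.193, unadjusted p = 0.00382, adjusted p = 0.892). OVA 3 carried much of the size: without it the log2 fold change was 0.44, and without OVA 1 it was 1.17. Arg1 is a dim probe set in these cells, at the percentile 26.2, 25.8 and 39.5 of all genes on OVA 1, OVA 2 and OVA 3 and at 19.2 to 19.9 on the PBS arrays. Whether it stood above the array's background was not analysed here.

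Since low levels tend to lie higher on OVA 2, Arg1 was also set on a common distribution by quantile normalization of all 6 arrays, an alternative chosen after seeing the data. Its levels were then 5.45, 5.43 and 6.18 on the OVA 1, OVA 2 and OVA 3 arrays, against 4.99 to 5.05 on PBS arrays. The order of the groups held, and the log2 fold change was 0.67 (standard error 0.209, unadjusted p = 0.0154, adjusted p = 0.871, limma).

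Arg2 (Entrez 11847), the mitochondrial arginase, is encoded by a separate gene and is found in many tissues outside the liver. Its levels were 5.81, 5.73 and 6.33 on OVA arrays and 5.63, 5.78 and 5.70 on PBS arrays. OVA 3 stood well above the rest, OVA 1 was just above the highest PBS array and OVA 2 lay among the PBS arrays. The log2 fold change was 0.36 (adjusted p = 0.55, standard error 0.161, limma) and 0.25 with OVA 2 (standard error 0.182, adjusted p = 0.892). It was 0.10 without OVA 3 and 0.62 without OVA 1, so a single array set most of it.

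Odc1 (Entrez 18263) encodes ornithine decarboxylase, which commits ornithine to putrescine and the other polyamines. Levels of 9.59, 9.40 and 9.30 on OVA arrays faced levels of 9.49, 9.04 and 9.66 on PBS arrays. All OVA arrays lay within the PBS range, and the log2 fold change was 0.05 (95% interval -0.43 to 0.53), or 0.04 over all 6 arrays. Its sign turned without OVA 1 (-0.09) and without PBS 2 (-0.13).

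**Figure D2:**
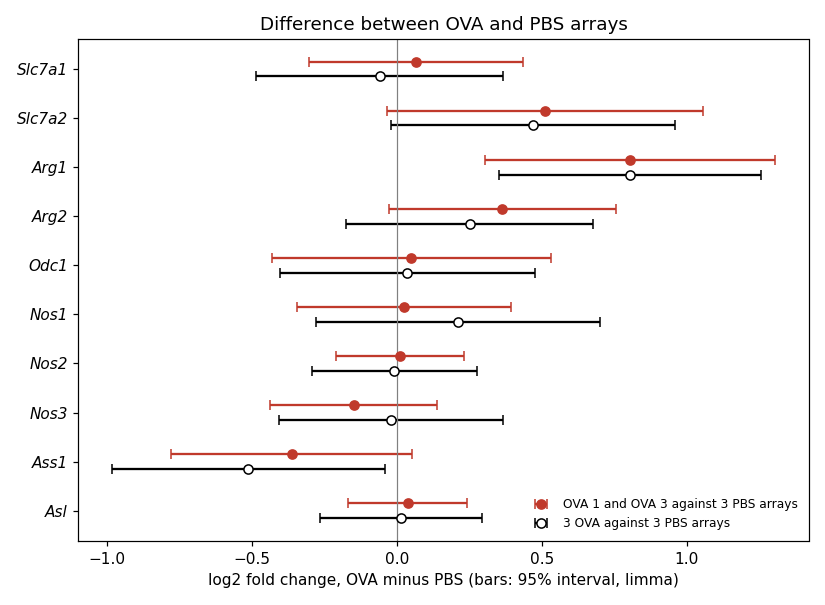
Log2 fold change, OVA minus PBS, of each of the 10 genes with its 95% interval from limma. Filled red points compare OVA 1 and OVA 3 with 3 PBS arrays, open black points all 6 arrays. Of the 10 intervals without OVA 2, that of Arg1 alone leaves out 0, at 0.31 to 1.31, and with OVA 2 that of Ass1 does so too.

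The nitric oxide synthase genes had log2 fold changes between -0.15 and 0.02, and none had an unadjusted p under 0.05. Nos2 (Entrez 18126) encodes the inducible enzyme, which immune and epithelial cells make in response to inflammatory signals. Its levels were 5.92, 5.92 and 6.04 on OVA arrays and 5.94, 5.93 and 6.04 on PBS arrays. The values of the groups were interleaved and close together. The log2 fold change was 0.01 (95% interval -0.21 to 0.23, adjusted p = 0.976, limma), and -0.01 (95% interval -0.29 to 0.27) over all 6 arrays. The interval without OVA 2 leaves out a doubling or halving of the measured Nos2 level and leaves in smaller changes. Nos2 is also a dim probe set, at the percentile 35.4, 29 and 37.9 of all genes on OVA arrays and 35.6 to 36.8 on PBS arrays. Whether it stood above the array's background was not analysed here, and near background a change in Nos2 RNA could be missed. After quantile normalization of all 6 arrays OVA 2 was lower than the rest, at 5.62 against 5.96 to 6.10, and the log2 fold change was -0.12.

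Nos3 (Entrez 18127), the enzyme of endothelium, had levels of 6.40, 6.86 and 6.55 on OVA arrays and 6.48, 6.79 and 6.60 on PBS arrays. OVA 2 was the highest and OVA 1 the lowest of the 6 arrays. The log2 fold change was -0.15 (95% interval -0.44 to 0.14, adjusted p = 0.70) without OVA 2 and -0.02 with it. Markers of endothelium ran the other way on OVA 2: their mean level was 6.93 there, 8.35 and 8.39 on the other OVA arrays, and 8.48, 9.25 and 8.52 on PBS arrays. Pecam1, which encodes CD31, was likewise lowest on OVA 2, with levels of 8.48, 6.52 and 8.60 on OVA arrays and 8.69, 9.44 and 8.59 on PBS arrays. Nos1 (Entrez 18125), the enzyme of neurons and skeletal muscle, had levels of 5.92, 6.45 and 5.86 on OVA arrays and 6.15, 5.67 and 5.78 on PBS arrays. OVA 2 was the highest array and the other OVA arrays lay within the PBS range, with a log2 fold change of 0.02 (95% interval -0.35 to 0.39), or 0.21 with OVA 2.

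Ass1 and Asl encode argininosuccinate synthase and argininosuccinate lyase, which together rebuild arginine from citrulline. Ass1 (Entrez 11898) had the most negative difference of the 10 genes, with levels of 6.22, 5.98 and 6.63 on OVA arrays and 6.56, 6.97 and 6.83 on PBS arrays. OVA 1 and OVA 2 were below every PBS array, whereas OVA 3 was slightly above PBS 1, so the groups overlapped. The log2 fold change was -0.36 (standard error 0.171, unadjusted p = 0.076, adjusted p = 0.565, limma), and -0.51 (standard error 0.201, unadjusted p = 0.037, adjusted p = 0.892) over all 6 arrays. It ranged between -0.57 without OVA 3 and -0.16 without OVA 1. Asl (Entrez 109900) had levels of 7.38, 7.32 and 7.41 on OVA arrays and 7.39, 7.28 and 7.40 on PBS arrays. The groups lay on top of each other, with a log2 fold change of 0.04 (95% interval -0.17 to 0.24) and of 0.01 over all 6 arrays.

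RefSeq sequence around gene starts, 250 bases before to 50 bases after the start on build GRCm38.p6, was at hand for 4 of the 10 members, Slc7a1, Odc1, Nos1 and Ass1, with 5 windows. The window of Ass1 is shown because this gene had the most negative difference and because its window is the 1 of 5 that holds CACGTG, the E-box letters. It lies on the plus strand at chr2:31470020-31470319 and reads from 5′ to 3′, with the E-box in capitals:
Ass1: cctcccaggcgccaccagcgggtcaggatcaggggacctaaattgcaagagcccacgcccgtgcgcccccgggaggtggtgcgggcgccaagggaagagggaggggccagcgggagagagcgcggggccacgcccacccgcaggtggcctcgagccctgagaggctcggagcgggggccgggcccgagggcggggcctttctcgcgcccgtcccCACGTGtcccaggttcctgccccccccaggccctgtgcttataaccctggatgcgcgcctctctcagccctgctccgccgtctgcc
The E-box spans bases 215 to 220 of the window, 36 to 31 bases before the start, and the same letters occur in 7.15% of 32851 windows of this length. CACGTG reads alike on both strands. The match describes the letters only.

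Changes of members were also set against each other within each array, for 3 pairs of genes. Arg1 and Nos2 are both dim probe sets, so their difference carries the limit given for each. Nos2 had a log2 fold change of 0.01, so this pair largely repeats the Arg1 difference and is not separate evidence. Arg1 minus Nos2 was -0.52, -0.16 and 0.08 on the OVA 1, OVA 2 and OVA 3 arrays, and -1.01, -0.97 and -1.06 on PBS arrays. The difference lay above every PBS array on each OVA array, by a mean of 0.80 on OVA 1 and OVA 3 (exact permutation test over arrays, two-sided p = 0.1, adjusted p = 0.15 over 3 pairs) and of 0.81 over all 6 arrays (exact permutation p = 0.1). Arg1 minus Arg2 was -0.41, 0.03 and -0.20 on OVA arrays and -0.70, -0.82 and -0.72 on PBS arrays. The groups did not overlap, and their means differed by 0.44 without OVA 2 and by 0.55 with it (exact permutation p = 0.1 for both, adjusted p = 0.15 and 0.1). Slc7a2 minus Slc7a1 was 1.88, 2.07 and 1.75 on OVA arrays and 1.45, 1.07 and 1.58 on PBS arrays, again without overlap (difference 0.45, exact permutation p = 0.2, adjusted p = 0.2; over all 6 arrays 0.53, p = 0.1). The share of other gene pairs without overlap was not counted. A p of 0.1 is the smallest that so few arrays can give. This test therefore cannot reach 0.05 and does not settle whether the members of a pair differed from each other.

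Around the members, 48 of 54 listed genes of arginine, polyamine and nitric oxide metabolism were measured, in 7 lists. None passed an FDR of 0.25 without OVA 2 or over all 6 arrays (limma), and 7 of the 48 reached an unadjusted p under 0.05, of which 5 lay higher in OVA samples and 2 lay lower. Over all genes 4.53% were higher and 4.78% lower at that cutoff. The 48 genes had a median log2 fold change of -0.03, as against -0.02 over all genes. Over all 6 arrays the count was 2 of 48, Gatm, higher, and Sms, lower. That share is near the 4.54% of all genes at this cutoff, 1.44% higher and 3.1% lower.

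Gatm encodes glycine amidinotransferase, which uses arginine to begin creatine synthesis and releases ornithine. The study lists Gatm as higher in OVA samples at an unadjusted p under 0.01 (limma). Here Gatm had the largest difference of the 48 genes and a larger one than any member. Its levels were 7.73, 6.85 and 8.40 on OVA arrays and 5.80, 6.52 and 6.57 on PBS arrays. Each OVA array was above each PBS array, and OVA 2 was the closest to them. The log2 fold change was 1.77 (standard error 0.296, unadjusted p = 0.000899, adjusted p = 0.413, limma), and 1.36 over all 6 arrays (unadjusted p = 0.0103, adjusted p = 0.892). The other genes of this list, of urea cycle enzymes in mitochondria and of creatine synthesis, lay between -0.14 and -0.03 without OVA 2 and between -0.33 and 0.13 over all 6 arrays. Nags, which makes the activator of Cps1, was at -0.14 without OVA 2 and -0.0046 with it, and Cps1, the carbamoyl phosphate synthetase of the urea cycle, at -0.06 and 0.13.

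Of 9 measured genes of polyamine metabolism, 2 were higher and 1 was lower at an unadjusted p under 0.05 (limma). Over all genes 4.53% were higher and 4.78% lower. With all 6 arrays 1 of the 9 reached that cutoff, Sms, and the list was not tested as a set. Sms encodes spermine synthase, the last step of the pathway. Its levels were 6.65, 6.33 and 6.80 on OVA arrays and 7.48, 7.45 and 7.04 on PBS arrays. Every OVA array was below every PBS array, and the log2 fold change was -0.59 (adjusted p = 0.48, standard error 0.154), or -0.73 over all 6 arrays (adjusted p = 0.892). Srm, which encodes the spermidine synthase upstream of it, had levels of 9.34, 8.55 and 9.59 on OVA arrays and 9.04, 9.05 and 9.18 on PBS arrays. OVA 2 was the lowest array, and the log2 fold change of 0.38 without it was 0.07 with it. Azin2, an inhibitor of the antizymes that hold Odc1 protein in check, had a log2 fold change of 0.37 (adjusted p = 0.507) and 0.32 over all 6 arrays.

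**Figure D3:**
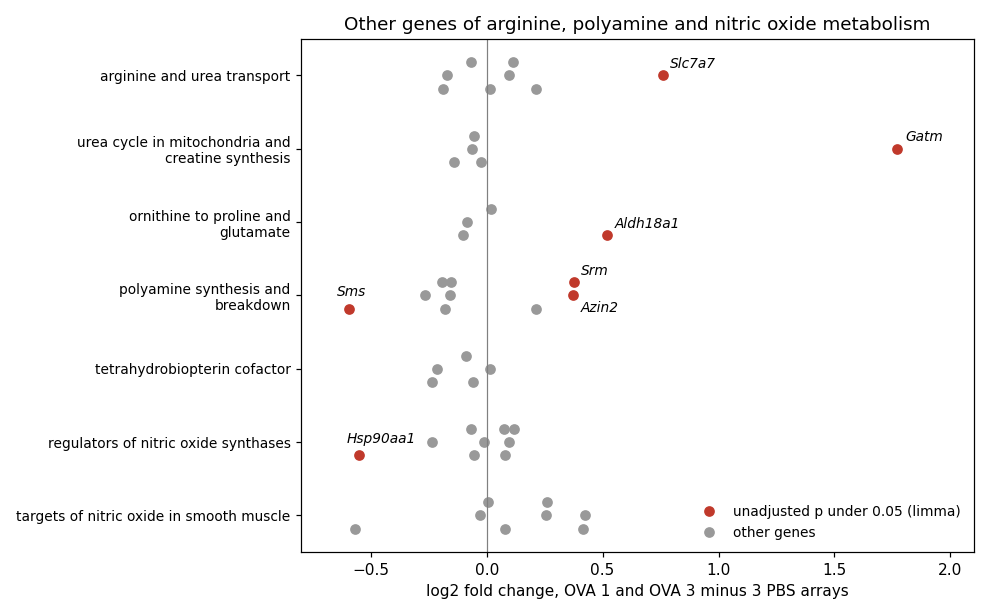
Log2 fold change of 48 further genes of the pathways, OVA 1 and OVA 3 minus the 3 PBS arrays, 1 point per gene in 7 lists. The 7 genes with an unadjusted p under 0.05 from limma are red and named, with Gatm at 1.77 and Sms at -0.59 at the ends of the range.

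Among 8 measured transporters of arginine and urea, Slc7a7, which encodes a light chain that exports cationic amino acids from the cell, had levels of 8.30, 7.27 and 8.53 on OVA arrays and 7.35, 7.49 and 8.14 on PBS arrays. OVA 2 was the lowest array, so that the log2 fold change was 0.76 (adjusted p = 0.487, standard error 0.241) without it and 0.38 with it. Slc7a6, a further light chain, and Slc25a29, a mitochondrial carrier of basic amino acids, had log2 fold changes of 0.21 and -0.19, or 0.14 and 0.01 over all 6 arrays. Of 4 measured genes that link ornithine to proline and glutamate, Aldh18a1, which encodes the enzyme that begins proline synthesis from glutamate, differed by 0.52 on the log2 scale (adjusted p = 0.48, standard error 0.16). With OVA 2 it was 0.17, since the level there was 8.53, below every PBS array. Oat, which turns ornithine into a precursor of proline and glutamate, and Prodh, which degrades proline, differed by -0.10 and -0.09, or -0.08 and -0.10 over all 6 arrays.

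Genes that supply, restrain or answer nitric oxide synthases showed no common direction. Of 5 measured genes of tetrahydrobiopterin, the cofactor of these enzymes, 4 had a negative difference without OVA 2. Spr, which completes its synthesis, had levels of 7.81, 7.93 and 7.95 on OVA arrays and 8.13, 8.21 and 8.02 on PBS arrays. The groups did not overlap, at a difference of -0.24 (adjusted p = 0.534, standard error 0.0981), and -0.22 over all 6 arrays. Gch1, the rate-limiting enzyme of the cofactor, and Gchfr, its regulator, had overlapping groups and differences of -0.22 and -0.09, or -0.51 and 0.18 over all 6 arrays. Of 9 measured regulators, Hsp90aa1, a chaperone that binds Nos3 protein, had levels of 5.66, 6.35 and 5.97 on OVA arrays and 6.31, 6.41 and 6.40 on PBS arrays (log2 fold change -0.55, adjusted p = 0.48, standard error 0.115). OVA 2 lay among the PBS arrays there, and with it the log2 fold change was -0.37. Ddah2, which breaks down a natural inhibitor of the synthases, and Dynll1, a light chain that binds Nos1 protein, had differences of -0.24 and 0.10, or -0.41 and -0.08 over all 6 arrays, with overlapping groups. None of 8 targets of nitric oxide in smooth muscle had an unadjusted p under 0.05. Gucy1b1, a subunit of soluble guanylate cyclase, had levels of 9.20, 8.17 and 9.57 on OVA arrays and 9.53, 8.46 and 8.91 on PBS arrays. Its difference of 0.41 without OVA 2 was 0.01 with it. Prkg2, a cyclic GMP-dependent kinase, and Pde5a, the phosphodiesterase that degrades cyclic GMP, had differences of -0.57 and 0.26, or -0.34 and 0.07 over all 6 arrays, with overlapping groups.

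Markers of other cell types also differed in mean level between arrays. The mean level of 10 leukocyte markers was 8.42, 6.68 and 8.67 on the OVA 1, OVA 2 and OVA 3 arrays and 7.28, 8.23 and 8.21 on PBS arrays, with a positive mean difference for all 10 markers without OVA 2 and for 5 with it. Of these 10, 1 had an unadjusted p under 0.05 without OVA 2 and 0 had one with it. The mean of 10 macrophage markers was 7.72, 6.85 and 7.91 on OVA arrays and 6.92, 7.55 and 7.61 on PBS arrays, with a positive mean difference for 8 of 10 markers both without and with OVA 2. At an unadjusted p under 0.05 (limma), 3 of them were higher and 1 was lower without OVA 2, and 1 was higher and 1 was lower with it. Over all genes 4.53% were higher and 4.78% lower without OVA 2, and 1.44% and 3.1% with it. Cd68, a lysosomal protein gene of macrophages, had levels of 8.71, 7.03 and 8.95 on OVA arrays and 7.59, 8.19 and 8.72 on PBS arrays. Other markers of this list, picked out after their values were seen, ran differently. C1qa lay at 7.27, 7.12 and 7.76 on OVA arrays and 6.37, 7.06 and 7.02 on PBS arrays. Fcgr1 lay at 5.61, 5.95 and 5.80 on OVA arrays and 5.14, 5.31 and 5.53 on PBS arrays. For both, every OVA array was above every PBS array, while for Mertk every OVA array was below. OVA 2 was the lowest of the 6 arrays for the mean of both lists, and its Arg1 level was above that of every PBS array. Levels on OVA 2 cover a narrower range, with low levels lying higher, so a dim gene and brighter markers are not directly comparable there. After quantile normalization of all 6 arrays Arg1 was 5.43 on OVA 2 and 4.99 to 5.05 on PBS arrays. PBS 1 was the lowest PBS array for both lists, and its Arg1 level of 4.93 was close to the 4.96 and 4.98 of PBS 2 and PBS 3. Arg1 is dim on PBS arrays, at the percentile 19.2 to 19.9 of all genes, and its background was not analysed. Such close levels therefore do not tell whether Arg1 RNA followed these cells. The 7 measured eosinophil markers averaged 5.98, 5.72 and 6.08 on OVA arrays and 5.17, 5.18 and 5.59 on PBS arrays, an order of the groups like that of Arg1, with a positive mean difference for 5 of 7 markers without OVA 2 and for 6 with it. Of these 7 markers, 3 lay under the lower quartile of all genes on every array. The first marker of the list, Prg2, which encodes the major basic protein of the granules, had levels of 5.23, 6.02 and 5.33 on OVA arrays and 5.34, 5.34 and 5.36 on PBS arrays. Rnase2a (Entrez 93726), a ribonuclease gene that the study lists as Ear11, was picked out after its values were seen. Rnase2a had levels of 9.26, 6.30 and 9.44 on OVA arrays and 4.70, 4.76 and 6.76 on PBS arrays and set most of the difference in the mean. The 10 neutrophil markers averaged 6.27, 5.87 and 6.27 on OVA arrays and 5.70, 5.97 and 5.92 on PBS arrays, with OVA 2 among the PBS arrays. The 9 measured markers of T cells and group 2 innate lymphoid cells averaged 6.25, 5.96 and 6.41 on OVA arrays and 5.71, 6.06 and 6.20 on PBS arrays. The part of these cells in the Arg1 difference was not tested.

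**Figure D4:**
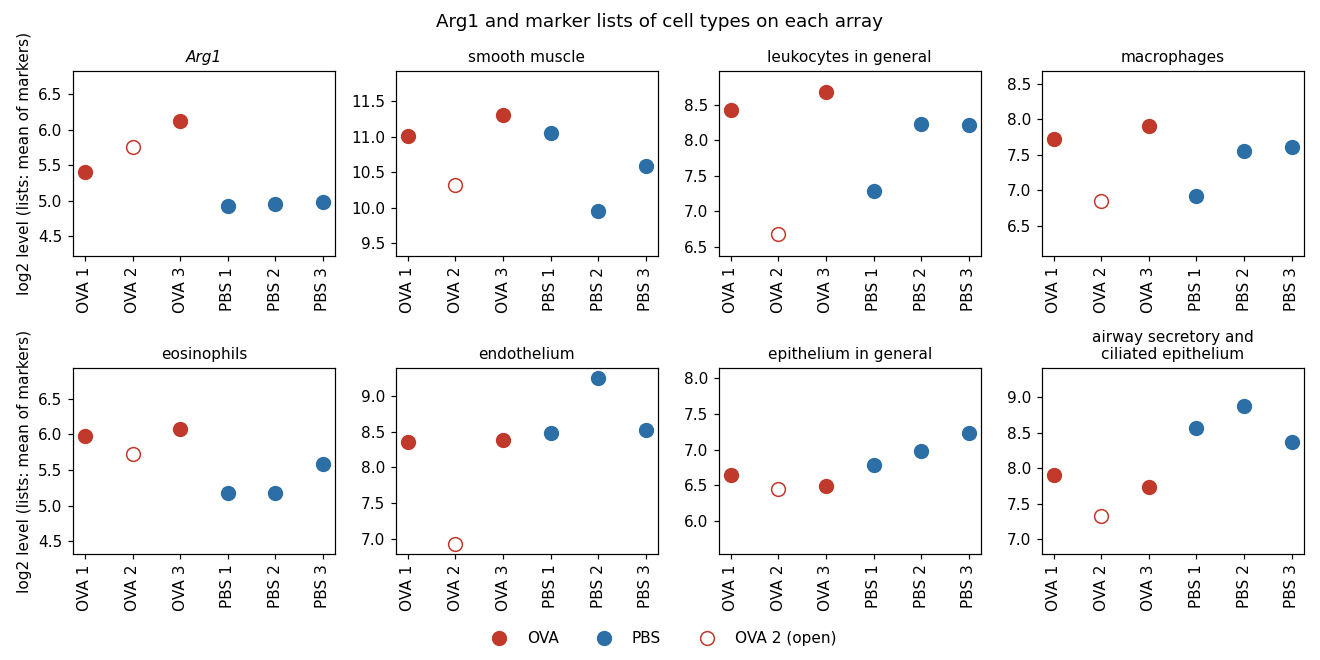
Log2 level of Arg1 and mean log2 level of the markers of 7 cell types on each of the 6 arrays, OVA in red and PBS in blue, with OVA 2 open. All panels span the same range. OVA 2 is lowest for leukocytes (6.68), macrophages (6.85) and endothelium (6.93) and lies above the PBS arrays for Arg1 (5.76). Levels on OVA 2 cover a narrower range than on the other arrays, with low levels lying higher.

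Epithelial markers ran in the same direction as Ass1. The mean level of 9 markers of airway secretory and ciliated epithelium was 7.91, 7.33 and 7.74 on OVA arrays and 8.56, 8.87 and 8.37 on PBS arrays. The mean difference was negative for all 9, with an unadjusted p under 0.05 for 5 of them both without and with OVA 2, and the groups overlapped for others such as Scgb1a1. That of 10 markers of epithelium in general was 6.64, 6.45 and 6.49 on OVA arrays and 6.79, 6.98 and 7.23 on PBS arrays. On OVA 3, where Ass1 lay among the PBS arrays at 6.63, both lists stayed below every PBS array, and the part of these cells in the Ass1 difference was not tested. The 10 smooth muscle markers averaged 11.01, 10.32 and 11.30 on OVA arrays and 11.05, 9.95 and 10.59 on PBS arrays, and PBS 1 was above OVA 1. The mean difference was positive for all 10, beside the positive difference of Slc7a2, with an unadjusted p under 0.05 for 2 of them without OVA 2 and for 1 with it. Markers of fibroblasts, from 11.06 to 11.36 on OVA arrays and 11.14 to 11.38 on PBS arrays, and of nerve and Schwann cells, from 5.55 to 5.79 on OVA arrays and 5.65 to 5.73 on PBS arrays, overlapped between the groups.

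The genes whose levels followed Arg1 most closely over the 6 arrays were sought among 3465 genes with a range of at least 1. They were Cd209e, a C-type lectin gene (Pearson r = 0.973), Ccl24, a chemokine gene (r = 0.969), Diaph3, a formin gene (r = 0.962), Hells, a chromatin remodeler gene (r = 0.948), and Zbp1, a nucleic acid sensor gene (r = 0.939). Over the 5 arrays without OVA 2 their r with Arg1 lay between 0.938 and 0.988. Ccl24 had levels of 6.34, 6.30 and 7.21 on OVA arrays and 5.33, 5.37 and 5.38 on PBS arrays, flat among PBS arrays and highest on OVA 3 as Arg1 was. For Slc7a2 the closest were Actn1, an α-actinin gene (r = 0.978), Sel1l3 (r = 0.965), Slc25a43, a mitochondrial carrier gene (r = 0.959), Spc25, a kinetochore gene (r = 0.956), and Olfr78, an olfactory receptor gene (r = 0.944). Actn1 had levels of 10.97, 10.85 and 11.22 on OVA arrays and 10.93, 10.17 and 10.80 on PBS arrays, with PBS 2 the lowest as for Slc7a2. With so few arrays and so many genes, high values of r arise readily, and they are given as a description.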

How the data were processed

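RNA of the 6 BSMC samples, 3 per group, was hybridized to Affymetrix whole-transcript arrays. The authors deposited log2 levels per probe set, made by RMA, which corrects background, normalizes and summarizes all arrays together; the submitters' notes name RMA and affy, and the Methods a probe-level model fitted with oligo. No version or genome build was found for these steps. Nothing was rescaled, and precision is limited by how few arrays there are. Of the 21225 probe sets, 20239 matched 1 symbol and entered the tests, while 986 matched none and were not analysed here. The members and the lists were chosen with earlier results of these data known. OVA minus PBS was tested by limma 3.58.1 (lmFit, eBayes; R 4.3.3), two-sided, and p-values were adjusted over all genes by Benjamini-Hochberg. OVA 2 was left out, following the Methods, and a fit of all 6 arrays stands beside it. Genes named were all members, the 3 of each pathway list with the smallest p, the 5 most like each of the 2 members with the smallest p, and leading markers of cell types. The fit was tested on simulated data. Alternatives were array weights, leaving out each array, a filter at the lower quartile of level, quantile normalization, median centring, trend with robust variance, an ordinary t statistic and the replicate number as a block.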

Additional observations from a re-analysis of the deposited data

How the results depend on the processing

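Under 20 alternative settings (19 for Arg1, which the filter on dim probe sets removed), Slc7a2, Arg1, Arg2 and Ass1 kept their direction, and no member passed an FDR of 0.25; the lowest adjusted p was 0.252, for Arg1 with array weights. With OVA 1 or OVA 3 left out of the 5 arrays, the lone OVA array is assumed to vary as the PBS arrays do. Arg1 had a log2 fold change of 0.44 to 1.17 and an unadjusted p under 0.01 in 11 of its 19 settings, and 0.0597 with the ordinary t statistic.

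Differences near 0 changed sign. For Slc7a1 the log2 fold change was -0.060 with all 6 arrays and -0.031 with array weights, and for Nos2 it was -0.0095 with all 6 arrays, -0.015 with array weights and -0.12 with quantile normalization of 6 arrays. Leaving out 1 of the 5 arrays gave -0.14 to 0.27 for Slc7a1, -0.13 to 0.19 for Odc1, -0.075 to 0.16 for Nos1 and -0.053 to 0.073 for Nos2. With 1 of the 6 arrays left out, the sign was turned for Slc7a1 without OVA 1 (-0.020), OVA 3 (-0.23), PBS 2 (-0.13) or PBS 3 (-0.065), for Odc1 without OVA 1 (-0.043) or PBS 2 (-0.14), for Nos2 without OVA 3 (-0.051), PBS 1 (-0.026) or PBS 2 (-0.031), for Nos3 without OVA 1 (0.081), OVA 3 (0.0057) or PBS 2 (0.062), and for Asl without OVA 3 (-0.0056) or PBS 2 (-0.023). The cause was not tested.

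The replicate numbers showed no sign of pairing the samples, with deviations of arrays of the same number correlated at -0.107, -0.036 and 0.015. This check included the outlying OVA 2 and rests on 3 arrays per group, so it cannot exclude a pairing. With the replicate number as a block, the log2 fold change was -0.0049 for Slc7a1, -0.13 for Odc1, -0.075 for Nos1 and -0.011 for Nos2, and with all 6 arrays -0.060 for Slc7a1 and -0.0095 for Nos2. The block gave 2 members with an unadjusted p under 0.05 (3 with all 6 arrays), and of the other pathway genes 1 with an FDR under 0.25 and, with all 6 arrays, 2 with a p under 0.05. The share of all genes at p under 0.05 was not counted with the block. Over all genes the block moved the count at an FDR of 0.25 to 38, against 8 without it.

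Members with an unadjusted p under 0.01 numbered 0 with quantile normalization of 6 arrays, with the filter on dim probe sets and with the ordinary t statistic, and 0 to 2 when 1 array was left out, with 0 without PBS 1, PBS 2 or PBS 3 and 2 without OVA 1. Members with one under 0.05 numbered 2 with all 6 arrays (4.54% of all genes), 3 with array weights and 3 with quantile normalization of 6 arrays. They numbered 0 with the filter and 0 with the ordinary t statistic, and 1 to 3 when 1 PBS array was left out, with 3 without PBS 1. The share of all genes at p under 0.05 was not counted in these other settings, so the counts do not tell whether more members changed. Of the other pathway genes, 3 passed an FDR of 0.25 with array weights, under which 438 of all genes passed, and 0 to 2 when 1 array was left out, with 2 without PBS 3. At a p under 0.05 there were 2 pathway genes with all 6 arrays, and 5 to 11 when 1 PBS array was left out, with 11 without PBS 1. The share of all genes at that cutoff was not counted in the fits with an array left out. Over all genes the count at that FDR was 0 to 68 when 1 array was left out, with 68 without PBS 3.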
